A study of Mus musculus with 6 samples.

Results

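The *Ifi200* family and *Aim2* form a cluster of related genes on mouse chromosome 1, and 10 of its genes are described here: *Aim2*, *Ifi206*, *Ifi214*, *Ifi213*, *Ifi209*, *Ifi208*, *Ifi204*, *Mndal*, *Ifi211* and *Ifi203*. They were chosen by symbol from a table of 54525 genes, with their lower counts in *Abat* cKO T cells already known, so that their difference between genotypes is a description and carries no test. In order along GRCm38 they span chr1:173350879-173942672, a stretch of 591.794 kb, and 3 of them lie on the plus strand and 7 on the minus strand.

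RNA was sequenced from 3 WT and 3 *Abat* cKO samples of CD4+ T cells. Naive cells of mice aged 6 to 8 weeks, of the C57BL/6N strain by the labels, were kept with IL-2 and stimulated for 36 h on plates coated with antibodies to CD3 and CD28, the TH0 condition, which adds no cytokine that directs a lineage. ABAT is the transaminase that breaks down γ-aminobutyrate (GAB), and in the *Abat* cKO line its gene, on chromosome 16, is deleted by Cre driven from *Cd4*, which acts in developing T cells. Total RNA was depleted of ribosomal RNA before sequencing. The floxed line was bred through a Flippase strain that carries 129S4 in its name and then to *Cd4*-Cre, while WT mice are given as C57BL/6 and littermates are not named. Genotypes were activated and harvested separately, so culture, mouse line and genotype cannot be told apart. Nothing in the labels ties replicate numbers to single mice, so p-values measure the spread between these samples.

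Proteins of the family, called PYHIN or p200 proteins, carry a pyrin domain, a DNA-binding HIN domain or both. AIM2 binds double-stranded DNA in the cytosol and recruits ASC to activate caspase-1, and p204, the product of *Ifi204*, is a mouse relative of the human DNA sensor IFI16. Many genes of the mouse family are induced by interferons, and several of their products were first studied as nuclear proteins of blood cells. Most of the remaining members are known mainly by sequence, and the family differs in size between mouse strains.

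Most members share a sequence near their starts, which was picked by reading their promoters. In RefSeq promoters on GRCm38.p6, each running from 250 bases before to 50 bases after a gene's start, 9 of the 10 members had an entry, and 7 of these 9 held GAAANNGAAA, the core of an interferon-stimulated response element. The motif was chosen after the promoters had been read and was searched on both strands, so its share among the members carries no test. The bases around it are the same or alike in several members, so their matches are not separate occurrences. It stood in 3.44% of all 32851 promoters of that length, and in 3.99% of 27025 genes. With TC as middle bases, GAAATCGAAA, it stood in 16 of all genes, 6 of them members. TTCNNNGAA, the pattern of an interferon-gamma-activated site, was found in 8.30% of promoters and in 0 of the 9 members. The 40-base stretches that hold the first motif are shown because most members hold it and the bases around and in it differ among them, with the motif, or the bases aligned to it, in capitals.
*Ifi206*: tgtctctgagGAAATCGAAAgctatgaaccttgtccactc
*Ifi214*: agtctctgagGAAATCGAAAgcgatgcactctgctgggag
*Ifi213*: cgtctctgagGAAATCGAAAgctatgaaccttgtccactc
*Ifi208*: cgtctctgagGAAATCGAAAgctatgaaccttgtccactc
*Mndal*: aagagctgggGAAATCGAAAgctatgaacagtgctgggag
*Ifi203*: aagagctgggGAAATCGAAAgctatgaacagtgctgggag
*Ifi211*: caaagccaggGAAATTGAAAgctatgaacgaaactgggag
*Ifi209*: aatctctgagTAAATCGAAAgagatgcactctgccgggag

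These stretches lie at chr1:173491329-173491368 for *Ifi206*, chr1:173536007-173536046 for *Ifi214*, chr1:173599316-173599355 for *Ifi213*, chr1:173673597-173673636 for *Ifi208*, chr1:173880194-173880233 for *Mndal*, chr1:173942498-173942537 for *Ifi203*, chr1:173913054-173913093 for *Ifi211* and chr1:173630770-173630809 for *Ifi209*, each read along the strand of its gene and upstream of a start that RefSeq annotates. GENCODE draws *Mndal* and *Ifi203* further out, to 173942491 and 173942672, so that there the stretches of both lie inside the gene. A further RefSeq promoter of *Ifi203*, chr1:173942623-173942922, held no match. The motif began between 35 bases (*Ifi203*) and 79 bases (*Ifi214*) before the start. *Mndal* and *Ifi203* had the same 40 bases at separate places, and so did *Ifi213* and *Ifi208*. With positions counted from 1 at the 5′ end of the stretch, *Ifi211* differed from *Ifi203* inside the motif by C16T and *Ifi209* by G11T, so that *Ifi209* held no full match. *Aim2* held no match either. The promoter of *Mndal* held a further match with other middle bases, and of the family's genes outside the group described here *Ifi207* held 1 match, with TC in the middle, and *Ifi205* held 2, with TT and GT.

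Before the members' values, the samples were compared as a whole. Counts over genes ranged from 19566016 to 24396746 per sample. On the second principal component, with 16.5% of the variance, WT replicate 3 and *Abat* cKO replicate 1 stood apart from the others of their genotype. *Abat* itself had 5, 1 and 0 counts in WT and 7, 3 and 2 in *Abat* cKO, too few to check the labels. Of 10 T cell markers listed for CD4 T cells, most of them shared with other T cells, all were detected. B cell markers differed with genotype, as given beside the lists below.

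In activated T cells, 7 members were lower by more than 4-fold in *Abat* cKO than in WT, and *Ifi211* and *Aim2* kept 48.3% and 69.0% of their WT level. All 10 members together had 4108, 5007 and 3590 counts in the WT samples and 579, 647 and 490 in the *Abat* cKO samples. Scaled by TMM, this was 188 ± 15.4 CPM (counts per 1000000 of the scaled library) in WT and 28.2 ± 2.41 CPM in *Abat* cKO (SD, n = 3 in both), 6.66-fold lower. Throughout, ± after CPM is the SD over 3 samples, and ± after a log2 fold change (*Abat* cKO over WT) is its standard error from edgeR. Bulk RNA cannot tell fewer cells of a type from less RNA per cell. The filter on low counts was passed by 9 of the 10 members, and *Ifi204* failed it. These 9 passed through their WT counts in part, and they had log2 fold changes from -4.36 to -0.53 with a median of -3.14, beside a median of 0.00 over all 13605 genes tested. The 9 all had an adjusted p under 0.05 in edgeR's quasi-likelihood test, in the lower direction, as did 13.4% of all tested genes, and 18.1% were higher. In the 9 the CPM of the groups did not overlap, as in 20.5% of all tested genes, lower in *Abat* cKO. Since this contrast chose the members, nothing is read from these counts. Leaving out WT replicate 3 and *Abat* cKO replicate 1 together gave a median of -3.27.

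**Figure D1:**
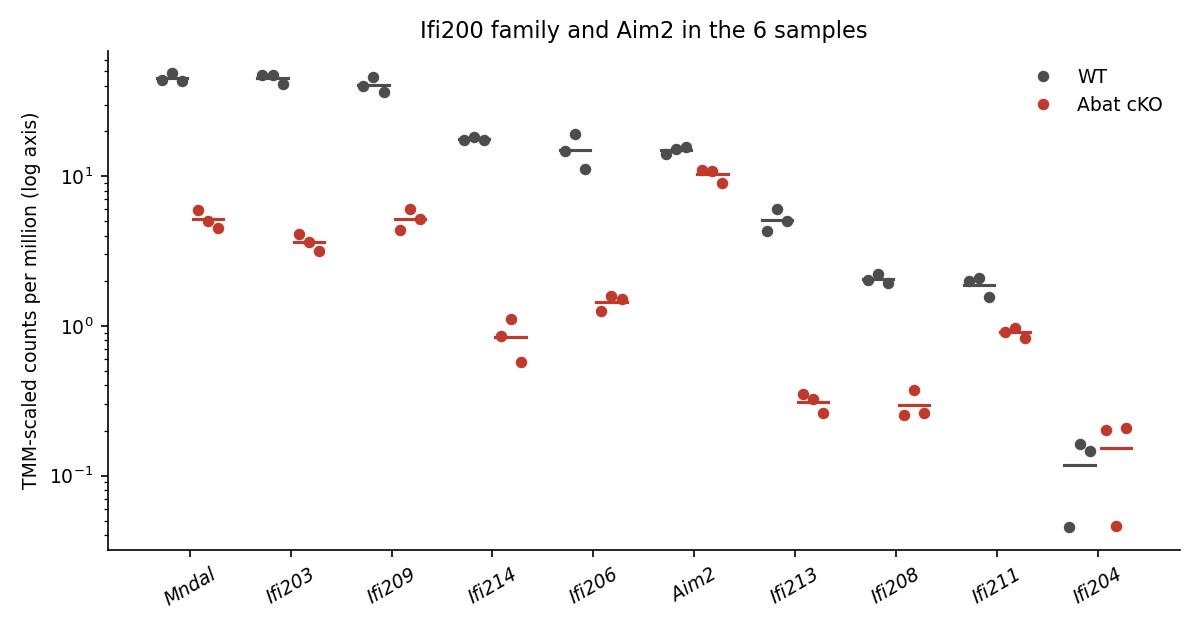
TMM-scaled CPM of the 10 members on a log axis, with 1 point for each of 3 WT and 3 *Abat* cKO samples and a bar at the mean. The genotypes are separate for 9 members, by the widest fold for *Ifi214* and the narrowest for *Aim2*, and they overlap for *Ifi204*. Of all tested genes, 20.5% are separate with *Abat* cKO lower, and the members were chosen by this contrast.

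Per length, the highest WT level was that of *Mndal*, the gene of myeloid nuclear differentiation antigen-like, an interferon-inducible nuclear protein. Its counts were 972, 1188 and 898 in WT and 117, 109 and 86 in *Abat* cKO. The lowest WT sample was 7.37 times the highest *Abat* cKO sample in CPM. The levels were 45.3 ± 2.79 CPM in WT and 5.14 ± 0.717 CPM in *Abat* cKO, with a log2 fold change of -3.14 ± 0.09.

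*Ifi203*, whose product p203 is a nuclear member of the family, had 1049, 1156 and 847 counts in WT and 82, 78 and 61 in *Abat* cKO. No sample of either genotype came near the range of the other. At 45.2 ± 3.62 CPM against 3.64 ± 0.481 CPM, its log2 fold change was -3.63 ± 0.10. The annotated extents of *Mndal* and *Ifi203* overlap, but their exons share 37 bases on the same strand, 0.552% of the exonic bases of *Ifi203*, so a shared exon holds little of either count.

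*Ifi209*, listed by RefSeq also as *Pyhin1*, had 882, 1123 and 755 counts in WT and 87, 131 and 99 in *Abat* cKO. It was 40.7 ± 4.71 CPM in WT and 5.20 ± 0.845 CPM in *Abat* cKO, and the log2 fold change was -2.96 ± 0.12. Its nearest relative by sequence, *Ifi214*, had 385, 444 and 360 counts in WT and 17, 24 and 11 in *Abat* cKO, and all WT samples were high and all *Abat* cKO samples low. *Ifi214* was the member with the widest fold, 17.6 ± 0.418 CPM against 0.847 ± 0.27 CPM, and its log2 fold change was -4.36 ± 0.15. The pair shared 100-base words of transcript sequence, 16.9% of those of *Ifi209* and 7.29% of those of *Ifi214*, so part of their reads may have been split or dropped by the counting.

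*Ifi213*, with the synonym *Pydc4*, and *Ifi208*, with the synonym *Pydc3*, had the same promoter stretch and differed in level. *Ifi213* had 95, 148 and 103 counts in WT and 7, 7 and 5 in *Abat* cKO, 5.10 ± 0.883 CPM against 0.313 ± 0.0476 CPM and a log2 fold change of -4.00 ± 0.26. *Ifi208* had 45, 54 and 40 counts in WT and 5, 8 and 5 in *Abat* cKO, 2.06 ± 0.136 CPM against 0.294 ± 0.0664 CPM. Its log2 fold change was -2.77 ± 0.30. Both were down to a few reads per *Abat* cKO sample, and on summed counts the exact 95% interval of the ratio of *Abat* cKO to WT, which covers counting error only, ran from 0.0363 to 0.0967 for *Ifi213* and from 0.0828 to 0.236 for *Ifi208*.

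*Ifi206* varied most of the 9 among the WT samples, with 324, 468 and 231 counts, a coefficient of variation of 26.5% in CPM, and it had 25, 34 and 29 counts in *Abat* cKO. WT replicate 3 was the lowest of its group and was still above every *Abat* cKO sample, 7.09 times the highest of them. The levels were 14.97 ± 3.97 CPM and 1.45 ± 0.166 CPM, a log2 fold change of -3.37 ± 0.23. Of its 100-base words, 7.74% were shared with *Ifi208* or *Ifi213* and 5.38% with the pseudogene *Gm18752*, which had 0 counts.

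*Ifi211* and *Aim2* moved least. *Ifi211*, with the synonym *Mnda*, had 44, 51 and 32 counts in WT and 18, 21 and 16 in *Abat* cKO, which do not overlap. It was 1.87 ± 0.284 CPM in WT and 0.904 ± 0.0708 CPM in *Abat* cKO, and the log2 fold change was -1.05 ± 0.25. Of its 100-base words, 56.9% were shared with *Ifi205*, *Ifi204* or *Mndal*, the largest such share among the members. Part of its reads may have been split or dropped by the counting.

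*Aim2*, at the proximal end of the cluster, had 311, 371 and 321 counts in WT and 217, 234 and 174 in *Abat* cKO. The lowest WT sample was 1.28 times the highest *Abat* cKO sample in CPM, the narrowest gap among the 9. Its level was 14.9 ± 0.778 CPM in WT and 10.3 ± 1.07 CPM in *Abat* cKO, for a log2 fold change of -0.53 ± 0.09. It shared 0 words of 100 bases with other genes of the family.

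*Ifi204* was barely detected in either genotype, with 1, 4 and 3 counts in WT and 4, 1 and 4 in *Abat* cKO. The ratio of *Abat* cKO to WT on the summed counts was 1.25. Its exact 95% interval, 0.428 to 3.72, covers counting error only and leaves the direction undetermined at this depth.

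With the members compared per kb of the deposited gene length, the order in WT was *Mndal* at 22.3 ± 1.38 CPM per kb, *Ifi203* at 12.0 ± 0.964, *Ifi209* at 11.8 ± 1.37, *Aim2* at 5.25 ± 0.274, *Ifi206* at 4.91 ± 1.30 and *Ifi214* at 3.69 ± 0.0874 CPM per kb, and the other 4 were below 2. *Ifi203* and *Ifi209* differed by less than their spread, and so did *Aim2* and *Ifi206*, and *Ifi206* and *Ifi214*. In *Abat* cKO the order began with *Aim2* at 3.62 ± 0.376 CPM per kb, followed by *Mndal* at 2.54 ± 0.354, *Ifi209* at 1.51 ± 0.246 and *Ifi203* at 0.97 ± 0.128 CPM per kb. *Ifi211* and *Ifi206*, at 0.507 ± 0.0397 and 0.475 ± 0.0546 CPM per kb, differed by less than their spread, as did *Ifi213* and *Ifi208*, at 0.101 ± 0.0154 and 0.0984 ± 0.0222. As a share of the members' summed counts, *Aim2* made up between 7.41% and 8.94% in WT and between 35.5% and 37.5% in *Abat* cKO, while *Ifi203* made up 23.1% to 25.5% and 12.1% to 14.2%. *Ifi211* had 0.891% to 1.07% in WT and 3.11% to 3.27% in *Abat* cKO. *Mndal* and *Ifi209* were the next largest parts in *Abat* cKO, with 18.2% and 18.5% of the pooled counts.

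**Figure D2:**
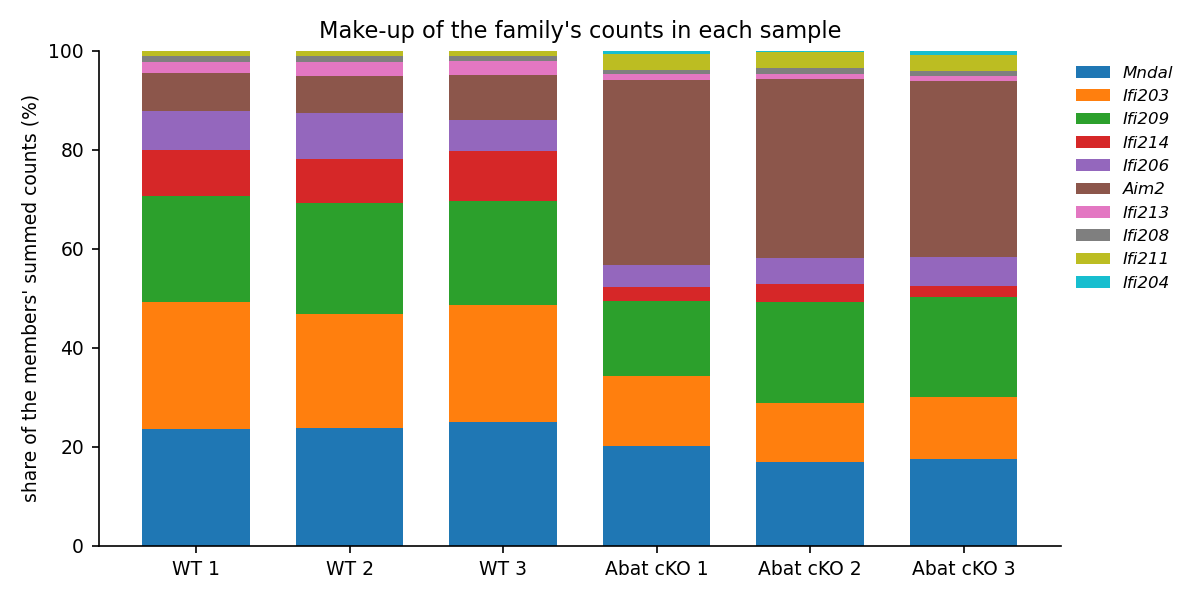
Share of the 10 members' summed raw counts, in percent, taken by each member in each of the 6 samples, as stacked bars. *Aim2* grows from 7.89% of the pooled WT counts to 36.4% of the pooled *Abat* cKO counts.

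Within a genotype, the coefficient of variation of CPM over the 9 members had a median of 8.01% in WT, with 26.5% for *Ifi206* as the highest, and of 13.9% in *Abat* cKO, with 31.9% for *Ifi214* as the highest. All 9 were above their group mean of log2 CPM in WT replicate 2, and 1 of 9 was in WT replicate 3. In *Abat* cKO replicate 3, 1 of 9 was above the mean, and the median deviation there was -0.18 on the log2 scale.

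Genes of the family other than the members were close to 0. *Ifi205*, whose product belongs to the p200 proteins, had 3, 4 and 1 counts in WT and 10, 4 and 3 in *Abat* cKO. *Ifi207* had 8 counts over all samples, the pseudogene *Ifi203-ps* 3, and *Ifi202b*, whose product p202 can block AIM2 in strains that express it, 1. None passed the filter on low counts. Of the 9 rows of the table that lie between the outermost members and are no members, the highest count in any sample was 4, so 0 of these 9 could be compared.

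The genes next to the cluster were read to see how far the lower counts reached along the chromosome. Within 2 Mb outside the outermost members, 35 of 127 genes were tested, and 11 were lower and 7 higher, and their median log2 fold change was -0.10. Against 13.4% over all tested genes, 31.4% of this neighbourhood was lower, and 7 of 35 higher calls stand against 18.1%. Within 5 Mb, 22.4% of 67 tested genes were lower and 19.4% higher. Scaled to the spike-in counts, 11 of the 35 were called in either direction. The lowest value was -1.84 ± 0.41 for *Slamf9*, which is named for that value and had 13, 15 and 13 counts in WT and 4, 2 and 4 in *Abat* cKO (adjusted p = 0.0065 in edgeR and 0.065 in DESeq2). No tested gene lay closer than 718 kb before *Aim2* or 1658 kb after *Ifi203*, so the edges of the pattern were not resolved.

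Among the nearest genes on the proximal side, *Dusp23*, a phosphatase gene, had a log2 fold change of 0.20 ± 0.41 (adjusted p = 0.75 in edgeR, with a sign that changed when WT replicate 2 or *Abat* cKO replicate 1 was left out), *Tagln2*, of an actin-binding protein, rose by 0.31 ± 0.05 on that scale (adjusted p = 5.4e-04, but 0.13 with spike-in scaling), and *Igsf9*, of an immunoglobulin superfamily protein, was lower at -0.89 ± 0.21 (adjusted p = 0.0089). On the distal side, *Fh1*, of fumarate hydratase, was at -0.10 ± 0.05, *Opn3*, of an opsin, was at -0.43 ± 0.27, and neither was called (adjusted p = 0.14 and 0.27; for *Fh1* 0.039 by library size alone), while *Chml*, of a Rab escort protein, was lower at -0.28 ± 0.08 (adjusted p = 0.025, but 0.061 to 0.074 without WT replicate 2, *Abat* cKO replicate 2 or *Abat* cKO replicate 3). Among the other called neighbours with the smallest adjusted p, the SLAM family genes *Slamf1* and *Cd84* were lower at -0.48 ± 0.05 and -0.53 ± 0.09, and *Cd48* was higher at 0.40 ± 0.06 (edgeR adjusted p = 3e-05, 0.0019 and 5.7e-04). Of the same family, *Ly9* was higher at 0.18 ± 0.05 (adjusted p = 0.017), and *Slamf7* and *Slamf6*, at 0.35 ± 0.13 and 0.20 ± 0.09, did not pass (0.065 and 0.12). *Igsf8* rose by 0.42 ± 0.05, and the antisense transcript *B930036N10Rik* was lower at -1.19 ± 0.13 (edgeR adjusted p = 2.5e-04 and 8e-05). Whether the counting used strand is not stated, so reads of this antisense gene and its partner cannot be told apart.

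**Figure D3:**
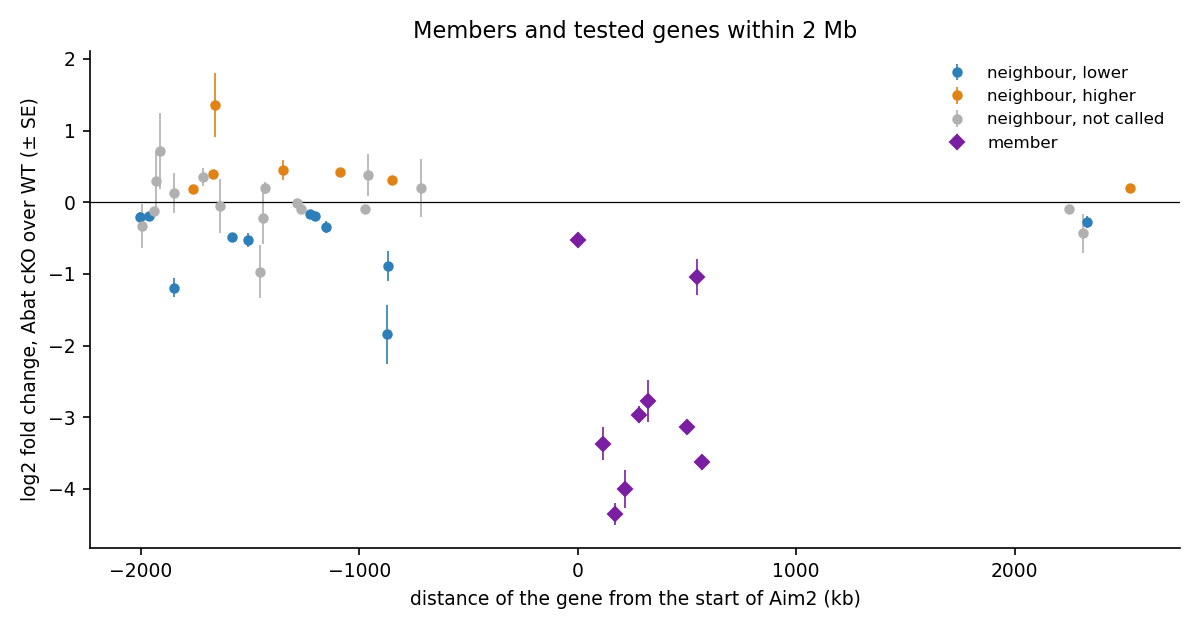
Log2 fold change of *Abat* cKO over WT, with its standard error, against the distance of each gene's lower coordinate from that of *Aim2* in kb, for the 9 tested members (diamonds) and 35 tested neighbours within 2 Mb (circles, coloured by call). Members reach from -0.53 to -4.36, and neighbours from -1.84 (*Slamf9*) to 1.36.

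Many interferon-stimulated genes elsewhere in the genome were lower too. Of 40 listed, 34 were tested, and 20 were lower, 0 were higher and 14 did not pass. The list's median log2 fold change was -0.61. Over all tested genes, 13.4% were lower and 18.1% higher. *Ifih1*, the gene of the RNA sensor MDA5, had 643, 804 and 528 counts in WT and 203, 176 and 163 in *Abat* cKO, and its log2 fold change was -1.71 ± 0.11 (edgeR adjusted p = 2.1e-06). *Samd9l*, an interferon-induced growth regulator, was lower at -2.25 ± 0.16, *Ifit1*, of an RNA-binding antiviral protein, at -2.78 ± 0.27, and *Phf11b*, of a PHD finger protein, at -0.88 ± 0.07 (edgeR adjusted p = 3.4e-06, 3.2e-05 and 9e-06). The lowest of the list was -3.07. *Ifit1* also varied within WT, with 207, 232 and 116 counts, as *Ifi206* did.

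Receptors and signal carriers of interferon moved both ways, beside 13.4% lower and 18.1% higher over all tested genes. Of 20 genes, 19 were tested, and 2 were lower, 6 higher and 11 did not pass, with a median of 0.05. Without WT replicate 3 and *Abat* cKO replicate 1 together, 13 were called in place of 8. *Irf9*, a DNA-binding factor of the type I interferon response, was lower at -0.36 ± 0.05, and *Jak1*, a kinase of the receptors, at -0.24 ± 0.04 (edgeR adjusted p = 4.4e-04 and 7.6e-04), and *Jak1* was not called with spike-in scaling (adjusted p = 0.08). *Jak2* rose by 0.61 ± 0.04 and *Ptpn2*, of a phosphatase acting on the JAK kinases, by 0.39 ± 0.06 (edgeR adjusted p = 4.1e-06 and 8.5e-04). Among 21 interferon genes, 16 had 0 counts in every sample, *Ifnb1* among them, and *Ifng* alone was tested. *Ifng* had 231, 345 and 51 counts in WT and 386, 451 and 372 in *Abat* cKO, and its log2 fold change was 1.12 ± 0.37 (edgeR adjusted p = 0.042). DESeq2 did not call it, nor did edgeR without WT replicate 1, *Abat* cKO replicate 2 or *Abat* cKO replicate 3 (adjusted p between 0.072 and 0.25).

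Genes of the AIM2 inflammasome and of other inflammasomes, listed together, also moved both ways, beside 13.4% lower and 18.1% higher over all tested genes. Of 16, 10 were tested, and 3 were lower, 1 was higher and 6 did not pass, with a median of -0.01. *Pycard*, the gene of the adaptor ASC, had 685, 705 and 614 counts in WT and 435, 457 and 395 in *Abat* cKO, and its log2 fold change was -0.49 ± 0.06 (edgeR adjusted p = 1.4e-04), close to that of *Aim2*. *Il1a* was lower at -1.87 ± 0.17 and *Nek7*, a kinase that serves NLRP3, at -0.16 ± 0.04, while *Il1b* rose by 2.38 ± 0.51 (edgeR adjusted p = 2.6e-05, 0.016 and 0.0054). *Il1b* was 0.310 ± 0.284 CPM in WT and 1.71 ± 0.42 CPM in *Abat* cKO, a low level in both. *Nek7* lost its call when scaled to spike-in counts (adjusted p = 0.24) and without WT replicate 1, WT replicate 2 or *Abat* cKO replicate 2.

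Of 20 genes of cytosolic DNA sensing and STING signalling, 19 were tested, with 2 lower, 5 higher, 12 not passing and a median of -0.04. The shares over all tested genes were 13.4% lower and 18.1% higher. *Tmem173*, the gene of STING, rose by 0.34 ± 0.07, as did *Traf3*, a ubiquitin ligase of that pathway, by 0.29 ± 0.05, and *Rnaseh2a*, of a nuclease subunit, by 0.23 ± 0.05 (edgeR adjusted p = 0.0039, 7.2e-04 and 0.0038). *Irf7*, the interferon-induced regulator of interferon genes, was lower at -1.47 ± 0.27 and *Xrcc5*, of the Ku DNA-binding complex, at -0.25 ± 0.04 (edgeR adjusted p = 0.0021 and 0.0013). Scaled to the spike-in counts, 2 of the 19 were called, and *Tmem173*, *Traf3*, *Rnaseh2a* and *Xrcc5* were not (adjusted p between 0.058 and 0.28).

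**Figure D4:**
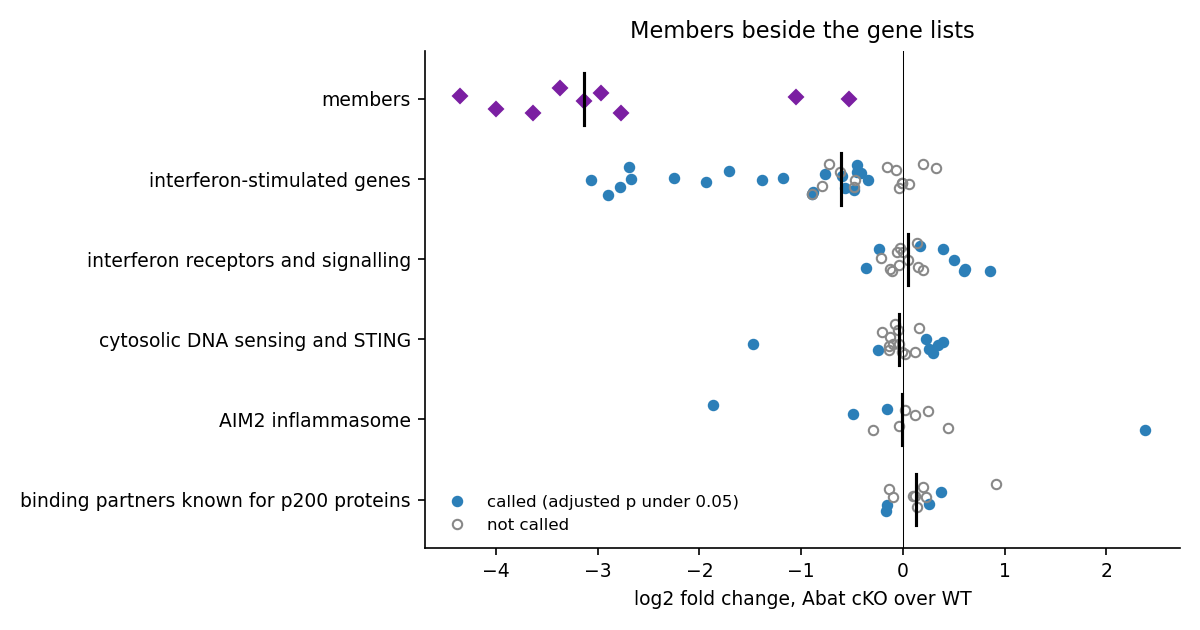
Log2 fold change of *Abat* cKO over WT for the 9 tested members and the tested genes of 5 lists, 1 point per gene, with a bar at each median and filled circles for genes with an adjusted p under 0.05. The members' median is -3.14 and that of interferon-stimulated genes -0.61, and the other 4 medians lie between -0.04 and 0.13.

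Other genes with the promoter motif were counted in the same fit. Of 348 tested genes outside the family that held GAAANNGAAA, 72 (20.7%) were lower and 68 (19.5%) higher, and the median was 0.00 on the log2 scale. Of 8949 genes without it, 1298 (14.5%) were lower and 1791 higher, and the median was 0.01. Log2 fold changes under -2 were found in 6 of the 348 and in 35 of the 8949. Of 10 genes that held GAAATCGAAA and were no members, 5 were tested, and *Ddx58*, the gene of the RNA sensor RIG-I, alone was called, at -0.35 ± 0.12 (edgeR adjusted p = 0.047). It was not called by DESeq2, with spike-in scaling or without any of WT replicates 1 and 2 and *Abat* cKO replicates 1 and 2 (adjusted p between 0.06 and 0.16). *Parp11*, *Pnrc1*, *Ripk1* and *Serpinb6a* had log2 fold changes from -0.13 to 0.21. The 6 members with the same 10 bases had log2 fold changes from -4.36 to -2.77. Of the other members with a promoter entry, *Ifi209*, with G11T and no full match, was at -2.96, within the range of these 6. *Ifi211*, with C16T, was at -1.05 and *Aim2*, with no match, at -0.53. This contrast had chosen the members and the motif was picked from their promoters, so nothing is read from this order. No binding was measured, and a match of letters is no measure of it.

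**Figure D5:**
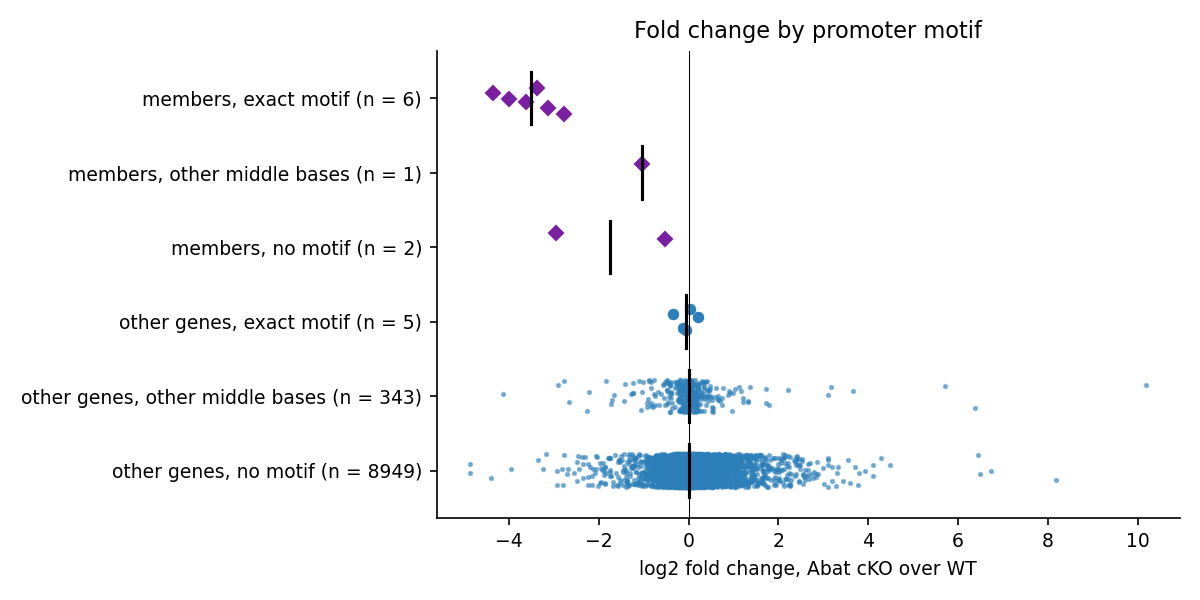
Log2 fold change of *Abat* cKO over WT for the 9 tested members (diamonds) and for 9297 other tested genes with a promoter entry (circles), by whether the promoter holds the 10-base motif with TC in the middle, with other middle bases or not at all, with a bar at each median. The 5 other genes with the exact motif lie between -0.35 and 0.21.

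Over the 6 samples, 5 genes outside the family were most like the members, by the root mean square difference of log2 CPM profiles centred on each gene's mean, from the mean profile of the 9 members, among 7594 candidates whose average log2 CPM was 4 or more. *Myb*, of a transcription factor of blood progenitors, was nearest at 0.251, with 97.1, 97.6 and 99.1 CPM in WT and 26.9, 24.5 and 23.0 CPM in *Abat* cKO. *Adamts6*, of a secreted metalloprotease, followed at 0.268, *Npas4*, of an activity-induced transcription factor, at 0.313, *Itm2a*, of a membrane protein of T cells, at 0.336, and *Ipcef1* at 0.337. These likenesses rest mainly on the difference between genotypes that chose the members, and their log2 fold changes ran from -2.54 to -1.80.

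Markers of other cells moved with genotype beside the members, where 13.4% of all tested genes were lower and 18.1% higher. Of 8 tested B cell markers 7 were lower and 0 higher, and their median was -2.04 on the log2 scale, and the 12 listed summed to 245 to 270 CPM in WT and 101 to 106 CPM in *Abat* cKO, mostly *Ighm* at 236 ± 4.32 and 96.7 ± 2.14 CPM. Both CD8 markers were lower, *Cd8b1* not without WT replicate 1 or WT replicate 2 (edgeR adjusted p = 0.053 and 0.061), at sums of 7.50 to 24.2 CPM in WT and 5.62 to 6.49 CPM in *Abat* cKO. The 6 NK cell markers summed to 5.91 to 25.6 CPM in WT and 20.3 to 24.5 CPM in *Abat* cKO, with 4 of 5 tested higher and 1 lower, and both tested γδ T cell markers were higher. For macrophages and monocytes, 0 of 2 tested markers were called, with sums of 4.45 to 7.80 CPM in WT and 5.93 to 8.81 CPM in *Abat* cKO, *C1qa* was at 0, and for neutrophils the sums were at most 0.367 CPM with *Elane* at 0. Dendritic cell markers, of which *Clec9a* was at 0, summed to 34.5 to 45.2 CPM in WT and 43.7 to 49.7 CPM in *Abat* cKO, and 0 of 2 tested were called. Most of this sum was *Bst2*, which is also among the listed interferon-stimulated genes, and the other dendritic cell markers were low. *Bst2* had 956, 1066 and 691 counts in WT and 835, 1035 and 916 in *Abat* cKO. Of the 10 T cell markers listed for CD4 T cells, most of them shared with other T cells, 7 were lower and 0 higher. Their sums were 3908 to 4000 CPM in WT and 3407 to 3544 CPM in *Abat* cKO. The part of these cells in the members' difference was not tested.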

How the data were processed

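The authors deposited 1 table of raw counts per gene for 6 samples, with normalized counts, a signal that the deposited table gives as raw counts divided by a size factor per sample. Group means, log2 fold changes and p-values of the study's own comparison, also in that table, were not used. The supplementary methods name TopHat2, HTSeq, GRCm38 and DESeq2, and the submitters' processing notes name Trim Galore 0.60, STAR 2.7 and RSEM 1.31, so which tools made the counts is not settled, and the strand setting is not given in the sources used here. Coordinates came from GENCODE M21 on GRCm38 (99.9% of genes matched).

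Raw counts, without 92 spike-in controls (0.817% to 1.00% of counts), were scaled by TMM, filtered with filterByExpr and tested for genotype with edgeR 4.0.16 (R 4.3.3, quasi-likelihood, Benjamini-Hochberg adjustment over 13605 genes, threshold 0.05). The common biological coefficient of variation was 0.0589, and the code was tested on simulated data. Levels per kb divide CPM by the deposited gene length. Alternatives were RLE or library-size scaling, spike-in scaling, DESeq2 1.42.0, other filters, a replicate block, leaving out samples, and windows of 1 and 5 Mb. Shared sequence was counted as 100-base words of GENCODE transcripts. Members and lists were chosen with earlier results of these data known. Named genes were all members and family genes, the 3 nearest tested neighbours per side and the 6 called ones with the smallest adjusted p, 4 per list by smallest adjusted p with 1 in the other direction, and the 5 nearest profiles.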

Additional observations from a re-analysis of the deposited data

How the results depend on the processing

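The members' median log2 fold change stayed between -3.27 and -3.07 over all alternatives run, both ends from leaving out samples, and all 9 tested members stayed lower and under the threshold, except that a minimum of 10 counts in every sample left 7 of them to test. The count of changed genes, 4291, was 2524 with spike-in scaling and 3234 to 5164 when samples were left out. Changed neighbours, 18 of 35 tested within 2 Mb, were 11 with spike-in scaling and 14 to 21 when samples were left out. Within 1 Mb 3 of 6 tested genes changed, and within 5 Mb 28 of 67. The share that was lower was 31.4% within 2 Mb and 22.4% within 5 Mb. Spike-in scaling also gave 2 in place of 7 for cytosolic DNA sensing and 1 in place of 4 for p200 binding partners. With no filter on low counts, 7 in place of 4 inflammasome genes were called, and DESeq2 called 0 in place of 1 interferon gene. When samples were left out, the counts called were 3 to 6 for the inflammasome, 5 to 10 for DNA sensing, 7 to 13 for interferon signalling, 0 to 1 for interferon genes, 15 to 24 for interferon-stimulated genes and 3 to 9 for binding partners. The neighbour *Dusp23*, not called, had a log2 fold change between -0.19 and 0.52 when samples were left out. The block took away the calls of *Chml* (adjusted p = 0.055), *Ddx58* (0.089) and *Trp53* (0.067). The cause of these changes was not tested. Without WT replicate 3 and *Abat* cKO replicate 1 together, 13 interferon signalling genes and 9 binding partners were called, and without *Abat* cKO replicate 1 alone 7 binding partners.

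Replicate numbers did not pair the samples, with correlations of -0.27, 0.02 and -0.26 between same-numbered samples, and with the replicate number as a block 3444 genes were called, the members' median was -3.14, and 14 neighbours and 18 interferon-stimulated genes changed. Summing the members' counts before the fit gave a log2 fold change of -2.74. Single members moved by less than the spread between replicates, except *Ifi203*, at -3.79 without WT replicate 3 and *Abat* cKO replicate 1 together. Of members with under 20 counts in a genotype, *Ifi208*, *Ifi213* and *Ifi204*, depth limits the fold most.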

Other observations

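Genes listed as known binding partners of p200 proteins changed both ways, and the list does not say which p200 protein each partner binds. Of 12 listed, all were tested, and 2 were higher, 2 lower and 8 did not pass, beside 2464 higher and 1827 lower of 13605 tested genes, with a median log2 fold change of 0.13. *Rb1*, the retinoblastoma gene, rose by 0.25 ± 0.05 and *Id2*, an inhibitor of basic helix-loop-helix factors, by 0.37 ± 0.07 (edgeR adjusted p = 0.002 and 0.0023). *Ubtf*, a factor of ribosomal RNA transcription, was lower at -0.17 ± 0.04 and *Trp53*, the p53 gene, at -0.15 ± 0.04 (edgeR adjusted p = 0.0079 and 0.018). *Rb1*, *Ubtf* and *Trp53* were not called when scaled to the spike-in counts (adjusted p between 0.22 and 0.26). *Trp53* also lost its call without WT replicate 1 or *Abat* cKO replicate 2 (adjusted p = 0.092 and 0.052) and with the replicate number as a block (0.067). Without *Abat* cKO replicate 1, 7 of the 12 were called.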
